A study of Mus musculus with 18 samples.

Results

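The expression of 44 genes that run mitosis was followed through a knockdown of Rnf185 in MPC3 cells, a mouse prostate cancer cell line. They were taken from a fixed list of symbols covering entry into mitosis, the spindle, the kinetochore and cytokinesis, and each symbol was matched to its Ensembl gene. All 44 of 44 were found among the 47643 genes of the count table, and all 44 passed the filter on low counts, which left 14309 genes to test. Rnf185 encodes a ubiquitin ligase of the endoplasmic reticulum. The control group was the MPC3 line labelled plko, and the other groups carried the short hairpin RNA shRNF185.1 or shRNF185.3, each in 6 libraries. Poly(A) RNA was sequenced, and the labels number 3 batches without saying of what, with replicates 1 and 2 of every group in batch 1, 3 and 4 in batch 2, and 5 and 6 in batch 3. The labels do not say whether the replicates came from separate cultures, so the p-values measure the spread between these libraries, which may be technical. The counts were already batch adjusted, per the file names, and the main fit held no batch term. That spread, and with it the p-values, may therefore be too small.

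Mitosis is driven by Cdk1, a kinase that works only when bound to a cyclin and after phosphatases of the Cdc25 family have removed inhibitory phosphates. The spindle then attaches to chromosomes at kinetochores, a checkpoint holds division until every kinetochore is attached, and the anaphase-promoting complex ends mitosis by having cyclin B and securin destroyed. Most genes for these proteins are transcribed late in the cell cycle under the MuvB complexes, with B-Myb and Foxm1, through CCAAT boxes and the cell cycle genes homology region (CHR), so their transcripts tend to move together in dividing cells.

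The depth was 22027395 to 43379662 counts per library, so that 3 counts corresponded to between 0.0692 and 0.136 CPM, counts scaled to library size. Rnf185 itself, the targeted gene, measured 33.6 to 38.4 CPM in the control libraries, 5.21 to 6.80 CPM with shRNF185.1 and 5.19 to 6.72 CPM with shRNF185.3, so every knockdown library lay below every control library. The prostate and epithelial markers Krt8, Krt18 and Hoxb13 were present in every library, whereas Pbsn had no count in any library and Epcam and Krt5 had at most 7 counts in one. The summed level of the 12 epithelial markers was 1825 to 2667 CPM in control, 1138 to 1907 CPM with shRNF185.1 and 1285 to 1506 CPM with shRNF185.3. The 7 mesenchymal markers, led by Vim, summed to 3079 to 4090, 3663 to 4229 and 3792 to 4425 CPM in the same order, with Thy1 at no more than 2 counts. These sums hide single markers that moved in opposite directions. Among the 8 epithelial markers tested, 5 had a negative log2 fold change with each hairpin. Values ran from -1.91 (Cdh1) to 0.64 (Trp63) for shRNF185.1, and from -2.13 to 0.76 (same genes) for shRNF185.3. Of the 5 mesenchymal markers tested, 2 were negative for shRNF185.1 and 1 for shRNF185.3. Their values ran from -2.11 (Dcn) to 1.29 (Col1a1), and from -0.50 to 2.19 (same genes). Of the 6 immune markers 5 averaged under 3 counts in each group (summed levels 2.41 to 5.04, 1.75 to 2.86 and 2.20 to 3.16 CPM), and the 4 endothelial markers summed to at most 0.706 CPM. The part of these differences in the results on mitosis genes was not tested.

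The mitosis genes were among the well expressed genes of these cells. In control, their mean level ran from 25.3 CPM for Cdc25c, a phosphatase that activates Cdk1, to 1069 CPM for Top2a, the topoisomerase that untangles replicated chromosomes, with a median of 135 CPM. The median member stood at the 87.9th percentile of the tested genes. Divided by exonic length, the order was bounded by the same genes, from 5.14 CPM per kb for Cdc25c to 119 CPM per kb for Top2a, with a median of 27.3 CPM per kb. The lowest count of any member in any library was 506, again for Cdc25c, so counting error was small for the whole list.

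The promoters show what the list shares in sequence. RefSeq promoter windows (GRCm38.p6, 250 bases before to 50 after the gene start) were matched for 36 of the 44 genes, in 39 windows, and searched on both strands for TTTGAA, the CHR, and for CCAAT. Only these exact letters were searched, so a CHR with other letters would be missed. The motifs can overlap only where their end letters coincide. The CHR letters occurred in 30 of the 39 windows (76.9%), against 17.9% of all 32851 windows, and CCAAT occurred in 32 (82.1%), against 37.4%. Both were present in 27 windows (69.2%), against 6.95% of all windows. The windows of 4 genes are shown from 130 bases before to 30 after the start, 5′ to 3′ on the gene's strand, with matches to either motif, on either strand, in capitals. They were chosen to show genes called higher, called lower and not called: Ttk (chr9:83834559-83834718, plus strand) was higher with both hairpins, Ube2c (chr2:164769799-164769958, plus strand) and Ccnb1 (chr13:100786457-100786616, minus strand) were lower with both, and Cdk1 (chr10:69352883-69353042, minus strand) passed no test. Ccna2, the member with the largest change, is among the 8 with no matched window.
Ttk: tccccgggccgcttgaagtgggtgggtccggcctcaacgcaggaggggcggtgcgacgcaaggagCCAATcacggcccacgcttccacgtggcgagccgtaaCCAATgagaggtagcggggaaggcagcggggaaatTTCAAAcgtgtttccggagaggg
Ube2c: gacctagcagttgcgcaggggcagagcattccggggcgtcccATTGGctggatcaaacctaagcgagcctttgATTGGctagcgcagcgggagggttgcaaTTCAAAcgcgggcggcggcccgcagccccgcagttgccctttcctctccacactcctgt
Ccnb1: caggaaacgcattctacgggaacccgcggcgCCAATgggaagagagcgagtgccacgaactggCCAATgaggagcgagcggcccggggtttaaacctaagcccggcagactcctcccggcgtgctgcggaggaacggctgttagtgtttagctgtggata
Cdk1: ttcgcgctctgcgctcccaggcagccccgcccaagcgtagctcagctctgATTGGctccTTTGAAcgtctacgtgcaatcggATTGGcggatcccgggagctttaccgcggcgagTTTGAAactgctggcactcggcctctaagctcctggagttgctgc
Ttk and Ube2c each held 1 match to TTTGAA, at 8 and -29 bases from the start, and Cdk1 held 2, at -71 and -15. Each of these genes also held CCAAT at 2 places. Whether the motifs go with the response was not tested. Ccnb1 held CCAAT at 2 places and no match to TTTGAA, which does not show that it lacks a CHR. Among the members with a window, the median log2 fold change with shRNF185.1 was -0.07 for the 27 genes with TTTGAA and -0.16 for the 9 without. With shRNF185.3 it was -0.06 and -0.08. A match describes the letters and not a bound site.

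**Figure D1:**
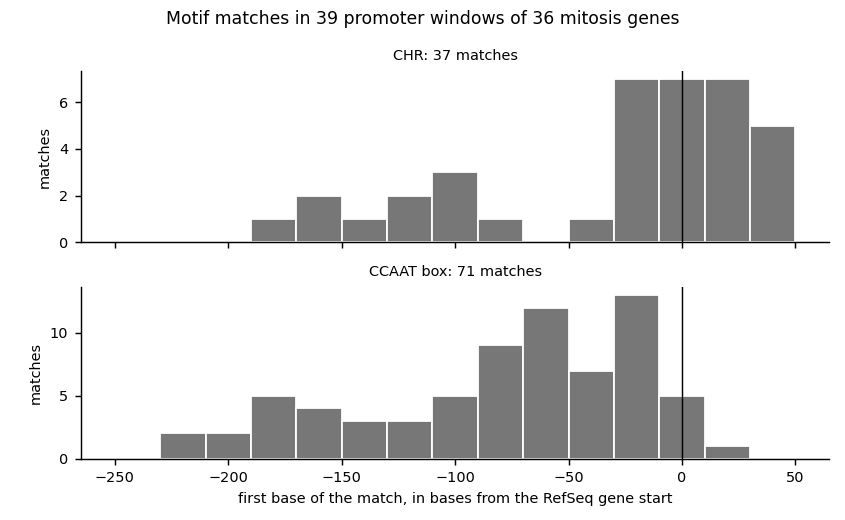
Number of motif matches (vertical axis) by distance of the first base of the match from the RefSeq gene start in bases (horizontal axis), in 39 windows of 36 mitosis genes, with the CHR above and CCAAT below. Of 37 CHR matches 27 lay within 50 bases of the start, with a median at -5, whereas the 71 CCAAT matches had a median at -65. Overlapping windows of Ect2, Prc1 and Bub3 repeat matches, which are counted at each distance.

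Knockdown of Rnf185 gave a call for a minority of the mitosis genes with each hairpin. With shRNF185.1, 10 of 44 genes fell (Ccna2, Ccnb1, Aurkb, Bub3, Cenpa, Ndc80, Ube2c, Birc5, Ect2 and Top2a) and 1 rose (Ttk), at an adjusted p under 0.05 in edgeR's quasi-likelihood test with Benjamini-Hochberg adjustment over all genes. That is 25% of the list, against 28.9% of all genes tested. With shRNF185.3, 6 genes fell (Ccna2, Ccnb1, Cdc25b, Ube2c, Kif11 and Ect2) and Ttk rose, which is 15.9% of the list against 27.3% of all genes. Among all genes the lower calls were 14.3% with shRNF185.1 and 13.1% with shRNF185.3, and the higher calls 14.6% and 14.2%. The comparisons use the same control libraries, so a call in both, as for Ccna2, Ccnb1, Ube2c, Ect2 and Ttk, is not repeated evidence.

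The changes were small. The median log2 fold change of the 44 genes was -0.08 with shRNF185.1 and -0.07 with shRNF185.3, beside -0.02 over all genes in each. The fitted value was negative for 32 and 33 of the 44, beside 7581 and 7649 of the 14309 genes tested. Without batch 3 it was negative for 20 and 15 of the 44. With shRNF185.1 only Ccna2 lay beyond 0.5 on the log2 scale (2.27% of the list), and with shRNF185.3 no member did, whereas 13.6% of all genes did so in each comparison. Among the 6959 tested genes within the level range of the members, 5.22% did so with shRNF185.1 and 4.43% with shRNF185.3, and 31.1% and 28.6% were called. Of those 6959 genes, 3816 and 4173 had a negative value. The 31 genes called with neither hairpin were not shown to be equal to control. For the 33 uncalled with shRNF185.1 the 95% intervals ran from -0.38 to 0.30, and for the 37 uncalled with shRNF185.3 from -0.37 to 0.31. In bulk RNA, fewer cells in mitosis and less RNA per cell cannot be told apart.

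**Figure D2:**
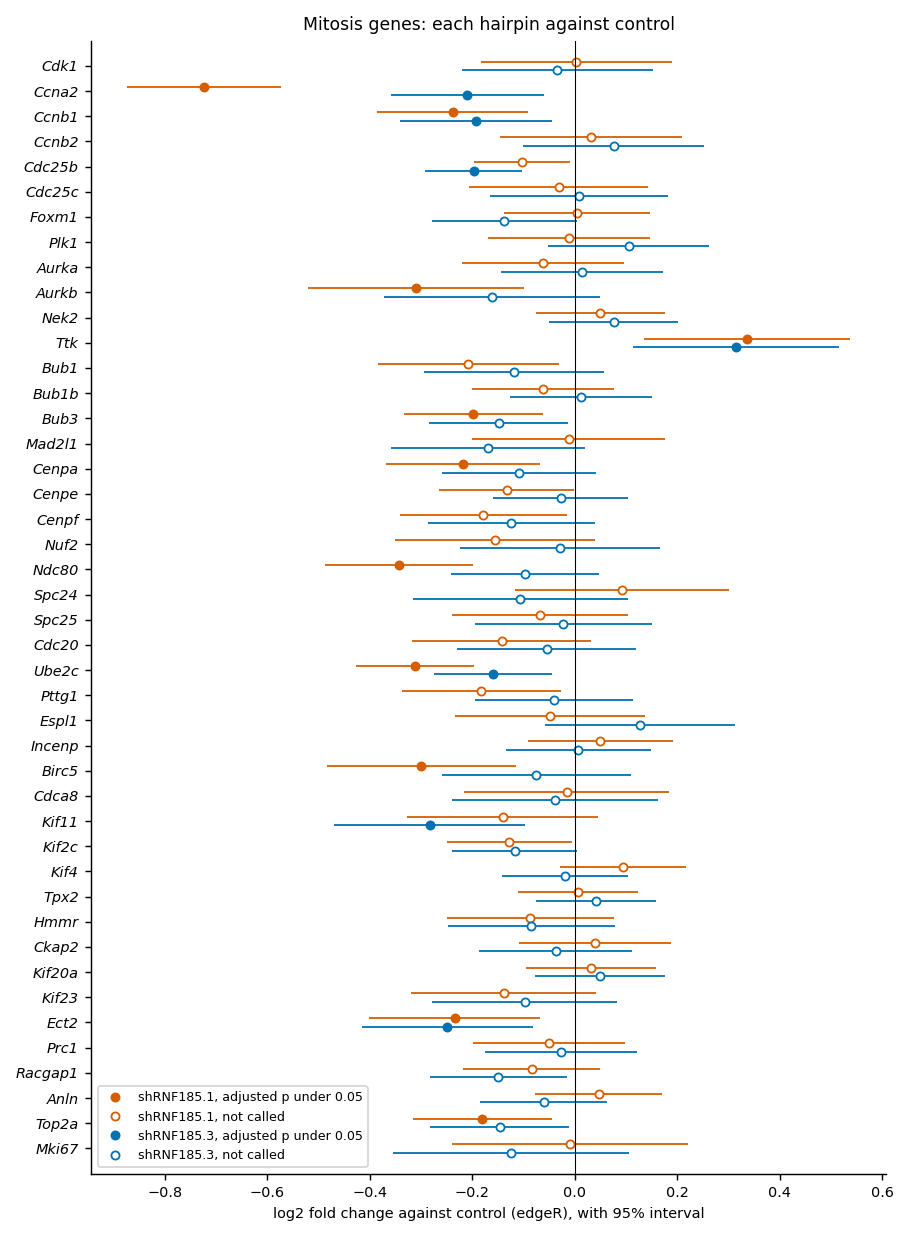
Log2 fold change of each of the 44 mitosis genes against control (horizontal axis) with shRNF185.1 and shRNF185.3, with 95% intervals as bars and filled points for an adjusted p under 0.05. Ccna2 with shRNF185.1 stands apart at -0.72, and the other called genes lie between -0.34 and 0.34.

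Among the 7 genes for entry into mitosis, cyclin A2 showed the clearest response of the list. Ccna2 (ENSMUSG00000027715, chr3:36564865-36572150, mm10), whose cyclin partners Cdk2 in S phase and Cdk1 at mitotic entry, measured 300 CPM at the lowest, 324 at the median and 385 at the highest in control. With shRNF185.1 the same values were 166, 205 and 225 CPM, so no library reached the lowest control. With shRNF185.3 they were 247, 290 and 303 CPM, and 5 of 6 libraries lay below the lowest control. Group means were 330 ± 30.5 CPM (control), 200 ± 20.1 (shRNF185.1) and 285 ± 19.5 (shRNF185.3), as mean ± SD of 6 libraries. Ccna2 stood at 60.6% of control with shRNF185.1 (log2 fold change -0.72, SE 0.07, adjusted p = 5.26e-07), and batches 1, 2 and 3 gave -0.67, -0.59 and -0.91. With shRNF185.3 it fell by 0.21 (SE 0.07, adjusted p = 0.0352), but batches 1, 2 and 3 gave -0.12, -0.06 and -0.45. Without batch 3 this value was -0.09 (adjusted p = 0.233), and without replicate 5 it was -0.13 (adjusted p = 0.0774). With a batch term in the fit the adjusted p was 0.0587.

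Cdk1, the kinase itself, showed no call. It measured 176, 225 and 237 CPM (lowest, median and highest) in control, 183, 222 and 241 CPM with shRNF185.1, and 181, 211 and 227 CPM with shRNF185.3. The ranges of the groups overlapped. For shRNF185.1 the 95% interval of its log2 fold change was -0.18 to 0.19 (adjusted p = 0.986). For shRNF185.3 the interval was -0.22 to 0.15 (adjusted p = 0.810).

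Ccnb1, cyclin B1, the main partner of Cdk1 in mitosis, measured 184, 217 and 239 CPM in control, 158, 181 and 207 CPM with shRNF185.1, and 166, 190 and 204 CPM with shRNF185.3. The groups overlapped, with lower medians in both knockdown groups. Relative to control the log2 values were -0.24 (SE 0.07, adjusted p = 0.0152) and -0.19 (SE 0.07, adjusted p = 0.0492), and without batch 3 the value with shRNF185.3 was -0.10. The call with shRNF185.1 held in 13 of 17 alternative analyses and that with shRNF185.3 in 5 of 17. Ccnb1 is also uncertain since 5 other genes, among them the copy Ccnb1-ps, hold 18.9% of its stretches of 75 bases. Ccnb2, cyclin B2, gave 0.03 and 0.08 with no call.

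The phosphatase gene Cdc25b was the member whose libraries separated with shRNF185.3. It measured 130 to 145 CPM in control, 116 to 136 CPM with shRNF185.1 and 114 to 126 CPM with shRNF185.3, and every shRNF185.3 library lay below every control library (5.7% of all genes did so in that comparison). The log2 fold change was -0.20 with shRNF185.3 (SE 0.05, adjusted p = 0.0028) and -0.10 with shRNF185.1 (adjusted p = 0.0937). The shRNF185.3 value kept its call in 16 of 17 alternatives, with adjusted p = 0.0509 without batch 1. Cdc25c gave -0.03 and 0.01, and Foxm1, the transcription factor that drives late cell cycle genes, gave 0.00 and -0.14, none of them called.

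**Figure D3:**
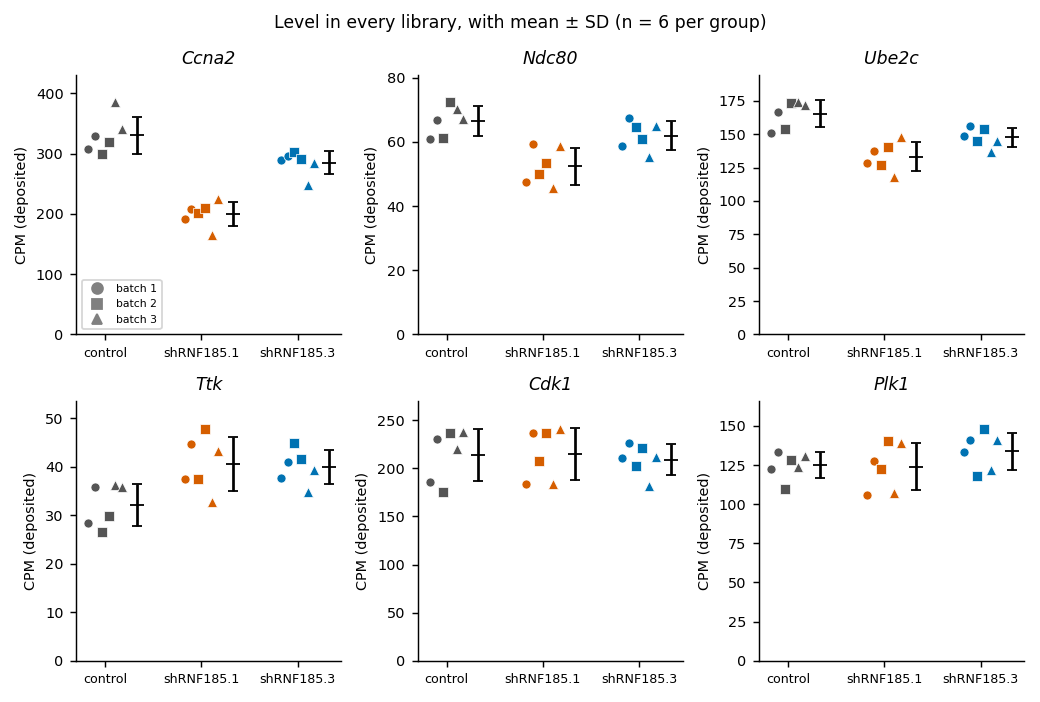
Level in CPM (vertical axes) of Ccna2, Ndc80, Ube2c, Ttk, Cdk1 and Plk1 in each library, by group, with points marked by batch. Every shRNF185.1 library of Ccna2, Ndc80 and Ube2c lies below every control library, and Ttk is higher in both knockdown groups with overlap.

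The 5 mitotic kinases split. Ttk (ENSMUSG00000038379, chr9:83834689-83872389), the Mps1 kinase that starts the spindle checkpoint at unattached kinetochores, was the member that rose. It measured 26.7, 32.8 and 36.4 CPM in control, 32.8, 40.4 and 47.9 CPM with shRNF185.1, and 34.7, 40.2 and 44.9 CPM with shRNF185.3. The ranges overlapped, and both knockdown medians lay above the highest control. On the log2 scale Ttk rose by 0.34 (SE 0.10, adjusted p = 0.0126) and 0.31 (SE 0.10, adjusted p = 0.0201). Batches 1, 2 and 3 gave 0.36, 0.58 and 0.06 for shRNF185.1, and for shRNF185.3 they gave 0.30, 0.61 and 0.03. Once batch 2 was left out, Ttk was at 0.22 for shRNF185.1 (adjusted p = 0.131) and 0.16 for shRNF185.3 (adjusted p = 0.274).

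Aurkb, the Aurora kinase of the chromosomal passenger complex, measured 86.9, 96.6 and 117 CPM in control, 67.8, 78.6 and 96.4 CPM with shRNF185.1, and 76.8, 88.3 and 102 CPM with shRNF185.3. The shRNF185.1 range lay low and overlapped the control range. Its log2 fold change was -0.31 (SE 0.10, adjusted p = 0.0260), with -0.29, -0.37 and -0.28 in the batches, and -0.16 with shRNF185.3 (adjusted p = 0.247). The call held in 11 of 17 alternatives.

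Plk1, the Polo kinase needed from mitotic entry to cytokinesis, measured 110, 126 and 133 CPM in control, 106, 125 and 140 CPM with shRNF185.1, and 118, 137 and 148 CPM with shRNF185.3, with overlap between all groups. Its log2 fold change had a 95% interval of -0.17 to 0.15 for shRNF185.1 (adjusted p = 0.927), and for shRNF185.3 one of -0.05 to 0.26 (adjusted p = 0.325). Aurka, the spindle pole Aurora kinase, gave -0.06 and 0.01, and Nek2, a centrosome kinase, gave 0.05 and 0.08, with no call.

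Of the 11 spindle checkpoint and kinetochore genes, 3 fell with shRNF185.1 and none was called with shRNF185.3 (0 by edgeR and 0 by DESeq2, and 1 of 11 lower at an unadjusted p under 0.05). Ndc80 (ENSMUSG00000024056, chr17:71496100-71526857) encodes the kinetochore protein that grips microtubule ends. It measured 60.8, 66.9 and 72.3 CPM in control, 45.7, 51.7 and 59.3 CPM with shRNF185.1, and 55.4, 62.8 and 67.4 CPM with shRNF185.3. No shRNF185.1 library reached the lowest control, while the shRNF185.3 libraries overlapped the control range. Ndc80 was at a log2 fold change of -0.34 with shRNF185.1 (SE 0.07, adjusted p = 0.000935), with -0.26, -0.36 and -0.41 in batches 1, 2 and 3, and -0.10 with shRNF185.3 (adjusted p = 0.319).

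The other subunits of the Ndc80 complex did not share this call. Nuf2, its direct partner, gave -0.16 with shRNF185.1 (95% interval -0.35 to 0.04), Spc24 gave 0.09 (-0.12 to 0.30) and Spc25 gave -0.07 (-0.24 to 0.10). Whether Ndc80 differed from its partners was not tested. Bub3, a checkpoint protein of the kinetochore, fell with shRNF185.1 by 0.20 (adjusted p = 0.0268) and measured 137 to 174 CPM in control, 122 to 154 CPM with shRNF185.1 and 134 to 154 CPM with shRNF185.3. Cenpa, the centromeric histone, fell by 0.22 (adjusted p = 0.0277) and measured 117 to 149, 98.3 to 127 and 111 to 137 CPM in the same groups. Both overlapped control, and each call held in 10 of 17 alternatives. Without batch 1 Bub3 was at -0.12, and without batch 3 Cenpa was at -0.12. The checkpoint genes Bub1, Bub1b and Mad2l1 gave -0.21, -0.06 and -0.01, and the kinetochore genes Cenpe and Cenpf gave -0.13 and -0.18, with no call.

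At anaphase onset, 1 of 4 genes fell with each hairpin, and it was Ube2c (ENSMUSG00000001403, chr2:164769898-164778822), the ubiquitin-conjugating enzyme that works with the anaphase-promoting complex. It measured 151, 169 and 174 CPM in control, 118, 133 and 148 CPM with shRNF185.1, and 137, 147 and 156 CPM with shRNF185.3. All shRNF185.1 libraries lay below the control range, and the shRNF185.3 libraries overlapped its lower end. The log2 fold change was -0.31 with shRNF185.1 (SE 0.06, adjusted p = 0.000282), and batches 1, 2 and 3 gave -0.26, -0.29 and -0.39. With shRNF185.3 it was -0.16 (SE 0.06, adjusted p = 0.0373), and without batch 3 it was -0.09 (adjusted p = 0.293). With a batch term in the fit the adjusted p for shRNF185.3 was 0.0629. Ccna2, Ndc80 and Ube2c were the 3 members whose shRNF185.1 libraries lay wholly below control, as 5.77% of all genes did. No member had a knockdown group wholly above control, where 7.02% (shRNF185.1) and 7.6% (shRNF185.3) of all genes did. Cdc20, the activator of the complex, gave -0.14 and -0.05, Pttg1, securin, gave -0.18 and -0.04, and Espl1, separase, gave -0.05 and 0.13, with no call.

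The chromosomal passenger subunits and the spindle motors each held 1 call. Birc5, survivin, fell with shRNF185.1 by 0.30 (SE 0.09, adjusted p = 0.0150) and measured 83.2 to 121 CPM in control, 69.6 to 93.3 CPM with shRNF185.1 and 82.8 to 108 CPM with shRNF185.3. Without batch 3 it was at -0.16. Its partners Incenp and Cdca8, borealin, gave 0.05 and -0.02. Neither partner was called, and whether they differed from Birc5 was not tested.

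Kif11, the kinesin that pushes spindle poles apart, was called with shRNF185.3. It measured 195, 226 and 273 CPM in control, 171, 214 and 238 CPM with shRNF185.1, and 168, 181 and 211 CPM with shRNF185.3, and the groups overlapped. The log2 fold change was -0.28 with shRNF185.3 (SE 0.09, adjusted p = 0.0234), with -0.18, -0.09 and -0.57 in batches 1, 2 and 3, and -0.14 without batch 3 (adjusted p = 0.343). With shRNF185.1 it was -0.14 (adjusted p = 0.254). The microtubule genes Kif2c, Kif4, Tpx2, Hmmr and Ckap2 lay between -0.13 and 0.09 with shRNF185.1 and between -0.12 and 0.04 with shRNF185.3, and none was called.

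Of the 6 cytokinesis genes, Ect2 fell with each hairpin. Ect2, the exchange factor that activates RhoA at the cleavage furrow, measured 107, 125 and 155 CPM in control, 93.6, 107 and 118 CPM with shRNF185.1, and 97.3, 102 and 120 CPM with shRNF185.3. The knockdown ranges were low and overlapped the lower part of control. Ect2 was at -0.23 (SE 0.08, adjusted p = 0.0329) and -0.25 (SE 0.08, adjusted p = 0.0257). Batch 3 carried the lowest values (-0.52 and -0.51), and batch 2 gave 0.05 and -0.00. Without batch 3 they were -0.09 (adjusted p = 0.487) and -0.11 (adjusted p = 0.352). A batch term gave Ect2 adjusted p = 0.0531 and 0.0436, and the calls held in 8 and 11 of 17 alternatives. Kif20a, Kif23, Prc1, Racgap1 and Anln, which build the central spindle and contractile ring, lay between -0.15 and 0.05 with no call.

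Top2a measured 996, 1061 and 1141 CPM in control, 835, 936 and 1080 CPM with shRNF185.1, and 878, 987 and 1014 CPM with shRNF185.3. Its ranges overlapped. For shRNF185.1 it fell by 0.18 (SE 0.06, adjusted p = 0.0421), and without batch 3 it was at -0.12. For shRNF185.3 it was at -0.15 (adjusted p = 0.101). The call held in 7 of 17 alternatives.

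Mki67, which encodes the proliferation marker Ki-67, had the largest standard error of the list (0.11). It measured 457, 540 and 745 CPM in control, 495, 581 and 670 CPM with shRNF185.1, and 450, 543 and 595 CPM with shRNF185.3. The ranges overlapped, and 1 shRNF185.3 library lay below the lowest control. Its log2 fold change was -0.01 (95% interval -0.24 to 0.22, adjusted p = 0.960) and -0.13 (-0.36 to 0.11, adjusted p = 0.431). The batches differed in sign, with 0.36, 0.17 and -0.51 for shRNF185.1 and 0.25, 0.02 and -0.61 for shRNF185.3.

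A direct comparison of the hairpins sets neither group against control. Its filter, scaling and estimate of spread still came from all 18 libraries, control included. Ccna2 and Ndc80 were higher with shRNF185.3 than with shRNF185.1, which is 4.55% of the list against 14.7% of all genes (7.72% higher and 6.94% lower). Ccna2 alone lay beyond 0.5 on the log2 scale (2.27% of the list), as did 8.19% of all genes and 2.01% of the genes within the level range of the members. Ccna2 differed by 0.51 (SE 0.07, adjusted p = 5.92e-05), with 0.55, 0.54 and 0.46 in the batches, and every shRNF185.3 library lay above every shRNF185.1 library, as for 4.45% of all genes (3.79% lay wholly below, and no member did). Ndc80 differed by 0.25 (SE 0.07, adjusted p = 0.0205), with 0.24, 0.28 and 0.21 in the batches and overlapping libraries, and its call held in 12 of 17 alternatives. Ube2c differed by 0.15 without passing the test (adjusted p = 0.0740). No member was lower (0 by edgeR, 0 by DESeq2 and 0 at an unadjusted p under 0.05, where 4 were higher). The 95% intervals of the 42 uncalled genes ran from -0.41 to 0.41, and the median over the list was 0.04. Rnf185 itself averaged 5.81 ± 0.582 CPM (shRNF185.1) and 5.80 ± 0.546 CPM (shRNF185.3), as mean ± SD of 6 libraries.

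The members varied together from library to library within groups. The difference of each member from its control mean, on the log2(CPM + 0.1) scale, was averaged over the 44 genes in each library. In control this mean ran from -0.15 to 0.12, and in the shRNF185.1 and shRNF185.3 groups it ran from -0.31 to 0.06 and from -0.21 to -0.01, so the groups overlapped. Replicate 5 was the lowest library of its group for 34 of 44 members with shRNF185.1 (77.3%, against 20.1% of all genes) and for 33 of 44 with shRNF185.3 (75%, against 22.8%). Control replicate 3 was lowest of its group for 28 members (63.6%, against 15.5%), and control replicate 5 was highest for 24 (54.5%, against 23.6%). Bub1, a checkpoint kinase, shows both, with its highest control library and its lowest library of each knockdown group at replicate 5.

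**Figure D4:**
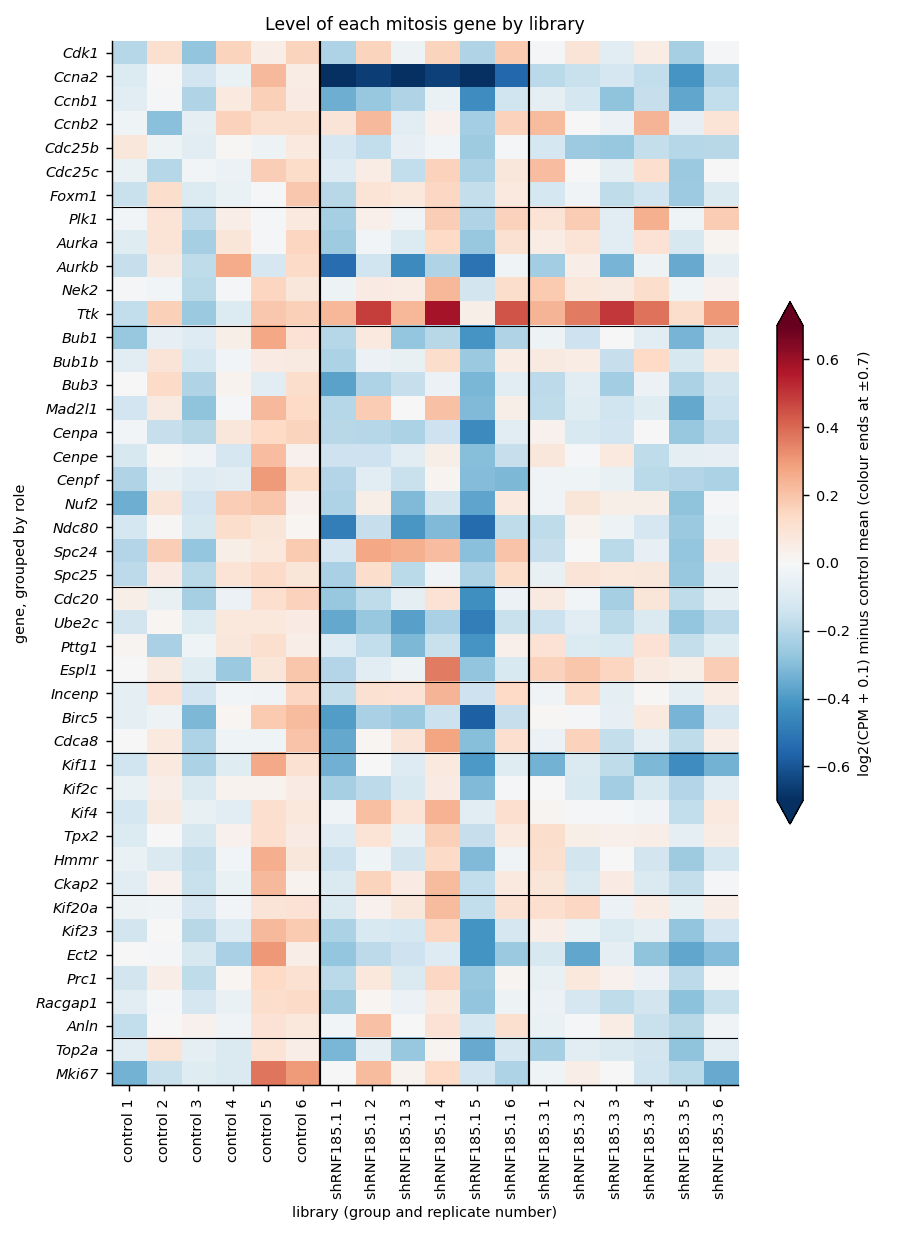
Log2(CPM + 0.1) of each mitosis gene (rows, grouped by role) minus its control mean, in each of the 18 libraries (columns), with colour from blue (lower) to red (higher). The Ccna2 row is blue in every shRNF185.1 library, the Ttk row is red in the knockdown groups, and the columns of replicate 5 are mostly blue in both knockdown groups and mostly red in control.

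The knockdown difference of the list varied by batch. In batch 3 the member differences from control were negative for 43 of 44 genes with shRNF185.1 (median -0.26) and for 42 of 44 with shRNF185.3 (median -0.22), the exceptions being Ttk with both and Plk1 with shRNF185.3. In batch 2 they were negative for 15 and 19 of 44 (medians 0.09 and 0.02), and in batch 1 for 29 and 15 (medians -0.06 and 0.05). Over all genes every batch median lay between -0.02 and -0.00. Control replicates 5 and 6, of batch 3, had the highest mean log2 difference from the control mean in their group (0.12 and 0.11). On that scale knockdown replicate 5 was at -0.31 with shRNF185.1 and -0.21 with shRNF185.3, and replicate 6 was at -0.01 and -0.06. Without batch 3 the fitted medians of the list were 0.01 and 0.04. With shRNF185.1, 11 members were lower in all 3 batches (Ccna2, Ccnb1, Cdc25b, Aurkb, Bub3, Cenpa, Ndc80, Ube2c, Pttg1, Birc5 and Top2a), 1 was higher in all (Ttk) and 32 had values of both signs. With shRNF185.3, 14 were lower in every batch, 2 were higher (Plk1 and Ttk) and 28 had both signs. The share of all genes with the same sign in every batch was not counted, so these counts cannot be read as a trait of the list.

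**Figure D5:**
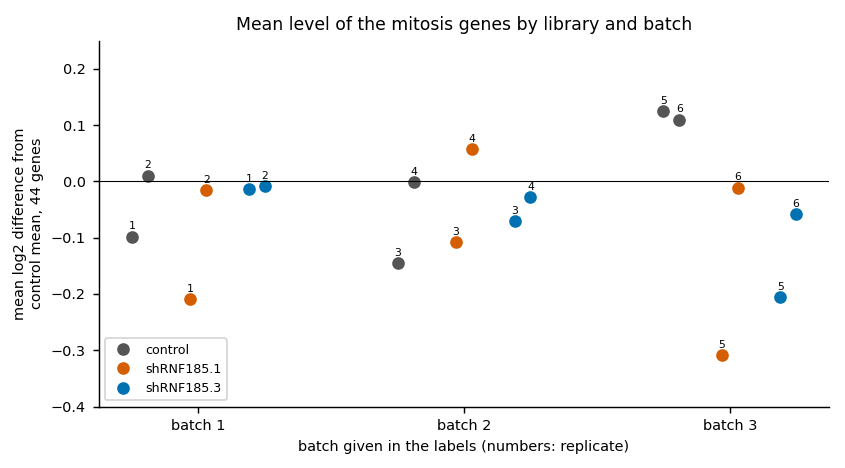
Mean over 44 mitosis genes of log2(CPM + 0.1) minus the control mean (vertical axis) in each library, by batch and group. Control libraries span -0.15 to 0.12, and the highest of them are replicates 5 and 6, both of batch 3. The lowest library of each knockdown group is replicate 5, of batch 3, at -0.31 and -0.21.

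Further genes were counted in 8 lists, of which 7 cover mitosis and its regulators and 1 covers proliferation genes outside mitosis, with 136 of 137 genes tested. With shRNF185.1, 4 rose and 18 fell (16.2%), and with shRNF185.3, 5 rose and 23 fell (20.6%), beside 28.9% and 27.3% of all genes. The medians were -0.08 in each. Among 15 genes of the anaphase-promoting complex 1 fell with each hairpin. It was Anapc4 with shRNF185.1 (136 ± 6.47 CPM in control, 98.1 ± 5.43 with shRNF185.1, SD, n = 6; log2 fold change -0.47, SE 0.04, adjusted p = 2.79e-07), a scaffold subunit, and Cdc16 with shRNF185.3 (-0.11, adjusted p = 0.0352).

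Condensin and cohesin shape and hold together the chromosomes that the spindle separates. Of 8 condensin genes 1 fell with shRNF185.1 and 3 with shRNF185.3, with Smc2, a core ATPase, at -0.32 and -0.44 (adjusted p = 0.00496 and 0.000434) and Ncapg2 at -0.36 with shRNF185.3. Of 14 cohesin genes 3 fell with shRNF185.1 and 4 with shRNF185.3. Rad21, the cohesin subunit cut by separase, averaged 433 ± 54.8 CPM in control, 292 ± 6.15 for shRNF185.1 and 415 ± 21.5 for shRNF185.3 (mean ± SD, 6 libraries each). Against control it was at -0.57 for shRNF185.1 (adjusted p = 2.39e-06), and for shRNF185.3 at -0.06 (adjusted p = 0.531), and the hairpins differed by 0.51 (adjusted p = 1.94e-05). Esco2, a cohesin acetyltransferase, was at -0.34 with shRNF185.3.

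Of 29 other centromere and kinetochore genes, 1 rose and 1 fell with shRNF185.1, and 1 rose and 2 fell with shRNF185.3. Zwint, a kinetochore scaffold partner, rose by 0.30 and 0.45 (adjusted p = 0.000279 and 4.35e-06), whereas Zwilch, of the checkpoint complex it helps to recruit, was at -0.53 with shRNF185.1 (adjusted p = 1.60e-05), and Kntc1 was at -0.27 with shRNF185.3. Of 29 other spindle and cytokinesis genes 1 rose and 5 fell with shRNF185.1, and 2 rose and 6 fell with shRNF185.3. Cep55, which acts in the final cut between daughter cells, fell by 0.67 with shRNF185.3 (SE 0.07, adjusted p = 6.33e-07) and was at -0.14 with shRNF185.1 (adjusted p = 0.139), a difference between hairpins of -0.54 (adjusted p = 1.83e-05). Bora, an activator of Aurora A, was at -0.29 and -0.28, while Cit and Ckap2l rose by 0.27 and 0.17 with shRNF185.3.

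Of 14 genes listed as regulators of Cdk kinases or of their substrates, 2 rose and 3 fell with shRNF185.1, and 2 rose with shRNF185.3. Mastl, the Greatwall kinase that protects Cdk1 substrates from dephosphorylation, rose from 29.1 ± 2.10 CPM to 42.8 ± 2.87 and 38.3 ± 2.39 (SD, n = 6 each; log2 fold change 0.55 and 0.40, adjusted p = 8.81e-07 and 3.99e-05). Ensa, a target of that kinase, was at -0.33 with shRNF185.1 (adjusted p = 3.78e-06), and Cks1b, a Cdk-binding subunit, at -0.29. Wee1, the kinase that restrains Cdk1, rose by 0.33 with shRNF185.3 (adjusted p = 0.0123). Of 12 DREAM, MuvB and B-Myb genes 2 fell with shRNF185.1 and 3 with shRNF185.3. Mybl2, B-Myb, was at -0.35 and -0.47 (adjusted p = 0.0276 and 0.00514), and Tfdp2 at -0.44 with shRNF185.3.

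Of 15 genes that mark proliferation outside mitosis, 2 fell with shRNF185.1 and 4 with shRNF185.3. Ccne2, cyclin E2, which acts at the start of S phase, averaged 40.0 ± 7.88 CPM in control, 17.2 ± 3.11 for shRNF185.1 and 28.8 ± 4.41 for shRNF185.3 (mean ± SD, 6 libraries each). Its log2 fold change was -1.22 (SE 0.14, adjusted p = 2.81e-06) and -0.47 (SE 0.14, adjusted p = 0.0148), further from 0 than any of the 44 mitosis genes in each comparison. The difference between hairpins for Ccne2 was 0.75 (adjusted p = 0.00105). E2f2 was at -0.56 with shRNF185.3, and its difference between hairpins was -0.41 (adjusted p = 0.00027). Over the 8 lists 6 genes were higher and 7 lower with shRNF185.3 than with shRNF185.1 (9.56%, against 14.7% of all genes).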

How the data were processed

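Poly(A) RNA of 18 MPC3 libraries was sequenced as single-end 75-base reads. Cutadapt 2.3, STAR 2.7.0d, RSEM 1.3.1 and the build mm10 are named, per the submitters' processing notes. The deposited expected counts were batch adjusted with ComBat-Seq, per the file names; whether groups were given to that step and whether counting used strand are not given in the sources used here. The values were rounded to whole numbers (0.466% were not whole). The CPM values the authors deposited were read as a signal, since their columns sum to 969986 to 1026394.

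Here edgeR 4.0.16 in R 4.3.3 was used (TMM, filterByExpr with a minimum count of 10, quasi-likelihood F test, all 18 libraries, groups only), with Benjamini-Hochberg adjustment over 14309 genes and calls at 0.05. Standard errors came from the F statistic and 95% intervals from its t distribution. Library and batch differences used log2(CPM + 0.1). DESeq2 1.42.0, other scalings, no filter, a batch term, the replicate block, a GC and length offset, and batches or replicates left out were tried as 17 alternatives. Motifs were searched in RefSeq windows; 8 members had none. The members and lists were chosen with earlier results of these data known. Named genes were the 13 called against control, values by library being given for the 3 with the largest change in each direction and comparison and for Cdk1, Ccnb1, Plk1, Aurkb, Top2a and Mki67, and from each further list at most 2 called genes a direction.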

Additional observations from a re-analysis of the deposited data

Results flagged for a closer look

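In the shRNF185.3 group, replicate 5 lay apart from the other 5 libraries, below the next value by more than Dixon's limit, for 3 mitosis genes. On the log2(CPM + 0.1) scale Ccna2 was at 7.95 there and at 8.15 in the next lowest library, Mad2l1 was at 6.41 and 6.59, and Nuf2 was at 6.30 and 6.56. The mean difference over the 44 members stood apart in the same library, at -0.21 against -0.07 in the next. These were 4 of 138 groups of values checked, where chance flags about 1 in 20, or 6.9.

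Effects against control differed between the hairpins for Ccna2 (shRNF185.3 minus shRNF185.1, log2 difference 0.51) and Ndc80 (0.25), by edgeR's test of the hairpins against each other.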

How the results depend on the processing

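Of 20 called member results 4 kept their call in all 17 alternatives: Ccna2 with shRNF185.1 (-0.78 to -0.63) and between hairpins (0.49 to 0.55), and Ndc80 (-0.39 to -0.29) and Ube2c (-0.36 to -0.26) with shRNF185.1. Of 2244 pairs of a member result and an alternative 1 reversed: Mki67 with shRNF185.1 was at 0.26 without batch 3 (adjusted p = 0.0193 in edgeR). No called result reversed, and DESeq2 changed no call of a member.

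Counts of calls are given for shRNF185.1, shRNF185.3 and the hairpins against each other. Without batch 1 all genes called were 2207, 2120 and 753, and members 4 lower and 0 higher, 0 lower and 0 higher, and 1 higher. Without batch 2, 15 members were lower and 0 higher with shRNF185.1, of 5119 genes called, 4 lower and 0 higher with shRNF185.3, and 1208 genes differed between hairpins. Without batch 3, members were 3 lower and 2 higher with shRNF185.1 and 1 lower with shRNF185.3, where 2501 of all genes were called. With a batch term 3559 genes were called with shRNF185.1 and 3260 with shRNF185.3, beside 4141 and 3906 in the main fit. With that term 3 members were lower with shRNF185.3, and with no filter 1 was higher between hairpins. Leaving out each replicate number in turn, a choice made after seeing the data, gave 3270 to 4316, 2963 to 3667 and 1382 to 2128 genes, members 3 to 10 lower and 0 to 2 higher, 1 to 5 lower and 0 to 1 higher, and 1 to 3 higher between hairpins.

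Deviations from group means of same-numbered libraries in different groups correlated at a mean of -0.0144, over 0.1 in 4 of 18 pairs. Pairs of the same batch with other numbers gave a mean of -0.434, over 0.1 in 1 of 18. Pairs from different batches gave a mean of 0.111, over 0.1 in 34 of 72. These values do not settle whether replicate numbers pair the libraries. With the replicate number as a block 9 members were lower and 1 higher with shRNF185.1, 4 and 1 with shRNF185.3, and 2 higher between hairpins, of 3811, 3578 and 1976 genes. The block ended both calls of Ect2 (adjusted p = 0.0755 and 0.0601) and, with shRNF185.3, that of Ccna2 (0.0619) and Ccnb1. With the GC and length offset added to the block, 12 and 9 were lower. That offset alone moved the share of higher calls from 51.8% to 36.9% with shRNF185.3 and from 52.7% to 42.5% between hairpins. The cause of these shifts was not tested. The effect of depth on the calls was not tested.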
